A study of Mus musculus with 14 samples.

Results

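The loss of labelled RNA over a chase was followed in the WT libraries of a SLAM-seq experiment on paused mouse embryonic stem cells. The members were chosen by their labels: 5 of the 14 libraries of the series, namely the WT libraries at 0 h, 1 h replicate 1, 3 h, 8 h replicate 1 and 8 h replicate 2. A further WT library, 1 h replicate 2, was very shallow and served only as a check. The remaining 8 libraries were of Mettl3-KO cells, which lack the methyltransferase that writes m6A on RNA, and 7 of these gave a comparison from separate cells. All cells were of the E14 line, had spent 2 weeks on gelatin in serum and LIF with 200 nM INK128, and received 100 µM S4U for 12 h with new medium every 3 h before the chase. The labels name neither the number of Mettl3-KO clones nor the culture each replicate was grown in. The p-values below therefore rest on the spread of libraries around a fitted line, which may be technical and also holds any curve in the loss.

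INK128 blocks the kinase mTOR, the hub through which nutrients drive ribosome production and protein synthesis. Under this block, mouse embryonic stem cells enter a reversible state of slow growth that resembles the dormancy of delayed blastocysts. In SLAM-seq, the uridine analog S4U enters new RNA, and alkylation with iodoacetamide makes it read as C, so that T>C conversions in a 3' end library mark RNA made during the pulse. After the analog is withdrawn, labelled RNA is lost as molecules decay, and the steepness of that loss orders mRNAs from short-lived to long-lived. In growing cells, mRNAs of regulators such as transcription factors and feedback inhibitors tend to be short-lived, and those of ribosomes and central metabolism tend to be long-lived.

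The 5 WT libraries held between 6108102 and 18086911 total counts, and the shallow one held 49154. Over the chase the share of counts with conversions was 39.4% at 0 h, 30.8% at 1 h, 19.9% at 3 h, and 4.52% and 3.72% in the 8 h replicates. The counting error of these shares is small, the exact 95% interval of the last being 3.70 to 3.73%, and this covers counting error only. In the shallow 1 h library the share was 8.43%, far from the 30.8% of its partner. Mettl3 itself was at 1.2 to 2.56 CPM in the 7 Mettl3-KO libraries compared and at 24.7 to 75.9 CPM in the 5 WT libraries, before TMM scaling. No library without S4U is among the 14, so mismatches that are not label could not be subtracted. Of 12 markers of pluripotent cells 11 stood above 10 CPM, the count scaled to library size, with a sum between 6335 and 8067 CPM per library, and Dppa5a was the lowest at 1.83 CPM. Summed markers reached at most 41.5 CPM for endoderm (Afp at 0), 32.3 for fibroblasts (Lum at 0), 29.9 for mesoderm and trophoblast (Elf5 at 0) and 103 for neural cells, of which Sox1 gave 51.9.

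Label per gene was expressed as conversion counts on the CPM scale of the TMM-scaled total counts, called labelled CPM here. It is therefore label relative to all RNA in the library. A slope of log2 label on hours was fitted for the 9549 genes that reached 10 conversion counts in 3 or more of the 5 libraries. The median slope was -0.55 log2 units per hour, which is a half-life of 1.81 h. The quartiles of the slopes gave half-lives of 1.51 and 2.21 h, and the 5th and 95th percentiles gave 1.15 and 4.01 h. The typical error of a slope was 0.117, so the order of most neighbouring genes cannot be told from these libraries. These half-lives are fitted over the whole chase without a correction for cell division. They are shorter than the pulse, and at 8 h a gene kept a median of 5.59% and 4.0% of its 0 h label in the replicates.

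edgeR's quasi-likelihood test with Benjamini-Hochberg adjustment found a slope below 0 for 9104 genes, 95.3% of those tested. A slope above 0 was called for 1 gene, Snora81, which is 0.0105%. Measured against the slope of the median gene, 434 genes (4.54%) lost label more slowly and 10 (0.105%) lost it faster at an adjusted p under 0.05. At an unadjusted p under 0.05 these were 1064 and 399. The called slow genes had a median level of 158 CPM and the called fast genes 56.1 CPM, against 40.1 CPM over all genes tested, in 3' end libraries whose counts need no scaling by length, and the part of expression level in the calls was not tested. The slow calls depended on the libraries fitted. Without WT 1 h replicate 1, 251 were called, 250 of them among the 434. Without 8 h replicate 1, 612 were called, 370 of them among the 434, and without 8 h replicate 2, 445 were called with 344 among them. The number of fast genes was 2 without WT 1 h replicate 1, both among the 10, and 4 without the 3 h library, all among the 10. Without the 0 h library 60 were called, 4 of them among the 10, without 8 h replicate 1 there were 7 with 1 among the 10, and without 8 h replicate 2 there were 11 with 2 among the 10.

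**Figure D1:**
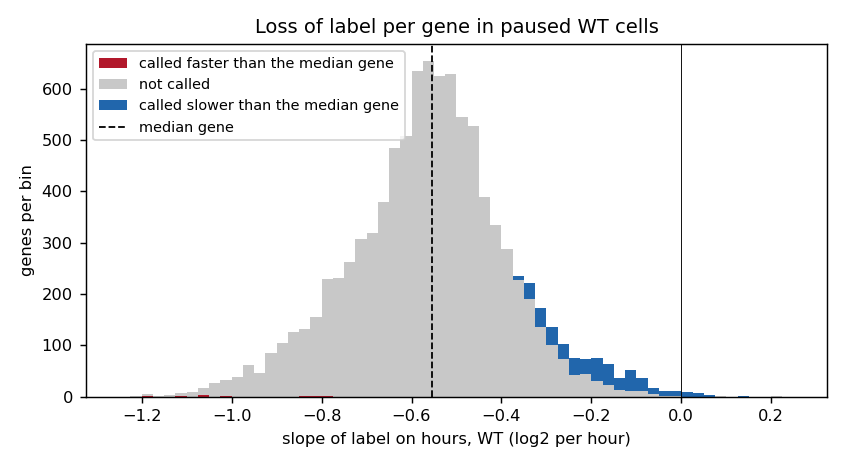
Number of genes by the slope of label on hours in the 5 WT libraries (log2 units per hour), coloured by the call against the slope of the median gene (dashed line, -0.55). The 434 slow genes fill the upper tail, and the 10 fast genes are barely visible in the lower one.

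The mRNAs of cytosolic ribosomal proteins formed the slowest class. Of 89 such genes with an entry, 75 were tested, and their median slope was -0.16, a half-life of 6.07 h, against -0.55 over all genes. Of the 75, 56 were called slower than the median gene (74.7%, where 4.54% of all genes were), none was called faster, and 72 lay above the median slope. Loss of label itself was called for 57 of the 75. The class kept a median of 63.1% of its 0 h label at 1 h, 53.6% at 3 h, and 37.2% and 28.7% at 8 h. The corresponding medians of all genes were 75.4%, 43.8%, 5.59% and 4.0%, so the class lay below the other genes at 1 h and above them from 3 h on.

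Rps20, a protein of the small subunit, had 1320 labelled CPM at 0 h, 862 at 1 h, 801 at 3 h, and 629 and 608 in the 8 h replicates. Both 8 h libraries thus lay close together and below the 3 h one, and the slope was -0.11 (SE 0.04, adjusted p against the median gene 4.70e-07 in edgeR's quasi-likelihood test). Rpl3, of the large subunit, had 208, 146 and 135 labelled CPM at 0, 1 and 3 h, and 114 and 135 at 8 h. Its slope of -0.07 (SE 0.05) did not differ from 0 (edgeR adjusted p = 0.168), while it did differ from the median gene (adjusted p = 4.70e-07). Rpl8 had 756, 555 and 467 labelled CPM at 0, 1 and 3 h and 367 and 361 at 8 h. In all 3 genes the 0 h library was the highest, and neither 8 h library lay above the 3 h one.

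As a share of each gene's own counts, which does not depend on the scaling between libraries, ribosomal protein mRNAs began low. Summed over the class, 22.9% of counts carried conversions at 0 h, 17.8% at 1 h, 17.3% at 3 h, and 10.4% and 9.02% at 8 h. Over all genes tested, the sums were 39.5%, 31.0%, 20.1%, 4.57% and 3.75%. Ribosomal protein mRNAs thus had less label than other genes at the end of the pulse and more label at 8 h. The 0 h library enters both the share and the slope, so these are not independent measures. In the separate Mettl3-KO libraries the median ribosomal protein gene also had a lower share at 0 h, 17.1% against 31.2% over all genes.

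Within the class, large and small subunit genes were alike in median slope, -0.19 for 45 large subunit genes and -0.16 for 30 small subunit genes, with 34 and 22 called slower. The slowest by slope were Rps27 (-0.03, SE 0.12) and Rpl10 (-0.04, SE 0.08), both called, although they had only between 0.447 and 8.49 labelled CPM in any library. At the fast end, the paralog Rpl7l1 (-0.65, SE 0.08) and Rps4l (-0.60, SE 0.06) were near the median gene and not called, and so was Rpl15 (-0.58). Rps4l, which is counted in the class, is a transcribed pseudogene by RefSeq biotype, and its counts may hold reads of other genes. Of the 19 genes not called slower, the median slope was -0.35 and the median level 35.3 CPM, against 591 CPM for the 56 called. Ribosomal protein genes have many processed pseudogenes of nearly the same sequence, and their levels here, between 3.99 and 6401 CPM, can depend on how shared reads were counted. Rpl14-ps1, a pseudogene, was itself among the 12 slow genes with the smallest p, with 251, 153 and 160 labelled CPM at 0, 1 and 3 h and 184 and 105 at 8 h. Its counts may hold reads of Rpl14, so no slope of its own can be read from them.

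**Figure D2:**
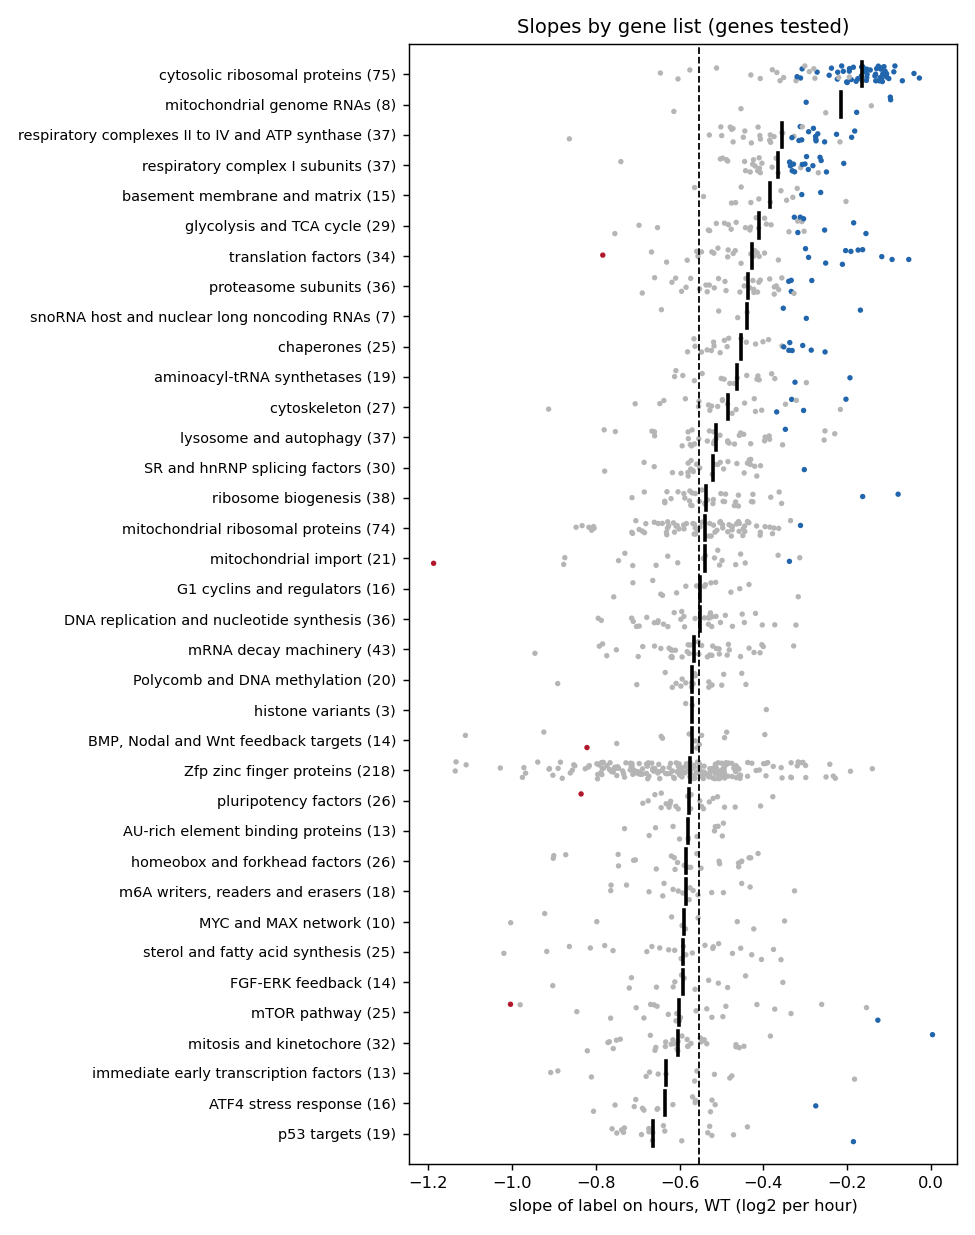
Slope of label on hours in WT (log2 units per hour) for the tested members of each gene list, 1 point per gene, with lists ordered by their median (black bar) and the number tested in brackets. Blue points were called slower and red points faster than the median gene (dashed line); ribosomal proteins stand apart at the top, with 56 of 75 called slower.

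Many ribosomal protein mRNAs begin with a 5' terminal oligopyrimidine (TOP) tract, a run of C and T in the DNA directly at the transcription start, and translation of such mRNAs is known to be the part of protein synthesis most sensitive to mTOR. Promoter windows are shown here for slow genes chosen among those that hold a run of C and T anywhere in the window, and for the fast genes with the smallest p. Each window is 30 bases, 15 before and 15 from the annotated RefSeq start on, in the GRCm38.p6 build and on the strand of the gene. Capitals mark runs of at least 7 bases that are C or T only, read on the gene's strand. The first 4 are ribosomal protein genes called slow, at chr7:3704026-3704055 (+), chr9:120571502-120571531 (+), chr8:123102335-123102364 (+) and chr17:27635230-27635259 (-).
Rps9: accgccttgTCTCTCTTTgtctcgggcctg
Rpl14: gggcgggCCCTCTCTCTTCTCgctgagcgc
Rpl13: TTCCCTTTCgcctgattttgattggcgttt
Rps10: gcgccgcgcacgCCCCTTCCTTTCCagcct
The next 3 are other slow genes, the ribosome-bound scaffold Rack1 (chr11:48800345-48800374, +), the cohesin-related Smc6 (chr12:11265871-11265900, +) and the initiation factor subunit Eif3f (chr7:108934400-108934429, +).
Rack1: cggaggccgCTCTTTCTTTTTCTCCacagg
Smc6: CTTTCCCCTCTCactgtcggccgggcagac
Eif3f: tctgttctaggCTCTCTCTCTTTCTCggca
The last 4 are fast genes, Dact2 (chr17:14203817-14203846, -), Nr0b1 (chrX:86191760-86191789, +), Cnep1r1 (chr8:88118744-88118773, +) and Timm29 (chr9:21592707-21592736, +).
Dact2: cgtcgcaaacaccgccctccgcggccagcg
Nr0b1: cggcggccactgggcagaacgagctacagg
Cnep1r1: aagggagcggttagaggtgggagttggcgc
Timm29: atgcaccccaCCTTCCTCacctgagcctac
In Rpl13 and Smc6 the run lies wholly before the annotated start, while in the fast gene Timm29 it spans the start. A run of this kind lies in 18.5% of all 27025 windows of the RefSeq promoter table. Of the ribosomal protein genes tested, 56 of 75 had a window, and 27 of these held a run. Of the 434 slow genes 254 had a window and 59 of these held a run (23.2%), but without ribosomal proteins 36 of 211 did (17.1%). Of the 10 fast genes, all with a window, 2 held a run. Of all genes tested 7290 of 9549 had a window, and 1272 of these held a run (17.4%). Apart from the fast genes, fewer than 80% of each tested set were covered, so a comparison of these shares is void. The window and the run length were chosen after values were seen, and a run in a window is not evidence of a start site used in these cells.

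Other mRNAs that are known to carry a TOP tract were also at the slow end. A list of 19 such genes outside the ribosomal protein list, chosen after values were seen, had a median slope of -0.20 (half-life 5.04 h). Of these, 13 were called slower and all 19 lay above the slope of the median gene. Rack1 had 886, 508 and 493 labelled CPM at 0, 1 and 3 h and 475 and 378 at 8 h, a slope of -0.09 (SE 0.05). Tpt1, a growth-related calcium-binding protein, had a slope of -0.08 (SE 0.06) and was called slower (edgeR adjusted p = 5.39e-06). The slopes were -0.20 for Fau, which encodes a ribosomal protein fused to a ubiquitin-like domain, -0.26 for Naca, which binds nascent chains, and -0.32 for Pabpc1, the poly(A)-binding protein. Members not called included Npm1 (-0.43, SE 0.06), Hnrnpa1 (-0.46, SE 0.08), Vim (-0.40, SE 0.06) and Eif4b (-0.40, SE 0.06).

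Translation factors as a whole were spread from slow to fast. Of 34 tested, 11 were called slower and 1 faster, with a median slope of -0.43 (half-life 2.35 h). Among genes with at least 20 conversion counts in every library, their median lay 0.04 above that of all such genes, against 0.13 over all genes tested. All 5 elongation factor genes were called slower, with slopes between -0.25 and -0.09. Eef1b2, an exchange factor that recharges eEF1A, had 940, 362 and 442 labelled CPM at 0, 1 and 3 h and 537 and 279 at 8 h. Of 12 subunits of eIF3, the scaffold of the small subunit at initiation, 6 were called slower. Eif3f was the slowest (-0.05, SE 0.05), with 127, 74.2 and 79.9 labelled CPM at 0, 1 and 3 h and 101 and 54.0 at 8 h. None of the other 17 factors was called slower, and their median slope was -0.52. Eif1, which guards the choice of start codon, was called faster, as described further on.

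Respiratory chain mRNAs were also on the slow side. Complex I, which takes electrons from NADH, had a median slope of -0.36 (half-life 2.74 h) over 37 genes, of which 15 were called slower and 36 lay above the median gene. The other complexes and ATP synthase together had -0.36 (half-life 2.81 h) over 37 genes, of which 14 were called slower and 36 lay above. Neither list had a member called faster. Among genes with at least 20 conversion counts in every library, complex I lay 0.12 above the median of all such genes and the other complexes 0.10, against 0.19 and 0.20 over all genes tested. Within the second list, 7 of 11 genes of complex IV, cytochrome c oxidase, were called slower, as were 5 of 13 for ATP synthase, 1 of 9 for complex III and 1 of 4 for complex II.

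Ndufa4, an accessory subunit first assigned to complex I and now known in complex IV, had 92.1, 29.9 and 29.4 labelled CPM at 0, 1 and 3 h and 24.9 and 16.0 at 8 h (slope -0.21, SE 0.06, edgeR adjusted p against the median gene 0.000421). Cox4i1, a core subunit of complex IV, had 173, 128 and 111 at 0, 1 and 3 h and 60.1 and 53.2 at 8 h (slope -0.19, SE 0.05, adjusted p = 1.50e-05). Sdhd, a membrane anchor of complex II, was the steepest member with a slope of -0.86 (SE 0.12) and was not called. Complex I genes kept a median of 65.1% at 1 h, 51.1% at 3 h, and 13.4% and 11.2% at 8 h, which lies between ribosomal protein genes and the median of all genes at 8 h.

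RNAs made from the mitochondrial genome itself were slow as well, though few were measured. Of 16 listed, 8 were tested and 4 called slower, with a median slope of -0.21 (half-life 4.67 h). The large ribosomal RNA mt-Rnr2 had 4192, 2393 and 2941 labelled CPM at 0, 1 and 3 h and 2830 and 1283 at 8 h. Its conversions were a small share of its counts, 7.27% at 0 h and 4.38% and 3.02% at 8 h. At so low a share, mismatches that are not label would weigh more, and their part was not tested. The transfer RNA mt-Tl1 was the steepest of the 8, with a slope of -0.61 (SE 0.08), and was not called.

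By contrast with the respiratory chain, nuclear genes for the mitochondrial ribosome and for protein import lay at the median. The 74 mitochondrial ribosomal protein genes had a median slope of -0.54 (half-life 1.86 h), and 1 of them, Mrpl52 (-0.31, SE 0.06), was called slower. The 21 import genes also had a median of -0.54, with Tomm7 (-0.34, SE 0.06) called slower and Timm29 called faster. Ribosome biogenesis factors, which build the cytosolic ribosome but are not part of it, had a median of -0.54 over 38 genes, far from the -0.16 of the ribosomal proteins. The 2 called slower there were the nucleolar proteins Nolc1 (-0.16, SE 0.05) and Fbl (-0.08, SE 0.10).

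Central metabolism, matrix and protein folding genes were on the slow side to a smaller degree, and for some lists the distance from the median gene was smaller among genes with at least 20 conversion counts in every library. Glycolysis and TCA cycle genes had a median slope of -0.41 (half-life 2.43 h), with 7 of 29 called slower and 26 above the median gene. Gpi1, the second enzyme of glycolysis, had 90.7, 74.8 and 68.6 labelled CPM at 0, 1 and 3 h and 39.4 and 25.05 at 8 h, and Fh1, fumarase, had 51.2, 29.9 and 33.0, then 31.3 and 5.32. The 8 h replicates of Fh1 thus differed more than its 0 h and 3 h libraries. Basement membrane and matrix genes had a median of -0.38 (half-life 2.61 h), 0.17 above all genes or 0.0858 under that filter, with 2 of 15 called slower. Among these was P4hb (-0.26, SE 0.06), a subunit of the enzyme that hydroxylates collagen. Pcolce, an enhancer of collagen processing outside that list, was among the 12 slow genes with the smallest p.

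Chaperones had a median slope of -0.45 (half-life 2.20 h), 0.10 above all genes or 0.0344 under that filter, with 7 of 25 called slower. Of these, 5 were among the 8 tested subunits of the CCT chaperonin, which folds actin and tubulin, and another was Hsp90ab1, a cytosolic HSP90. Hsp90ab1 had 1501, 1178 and 961 labelled CPM at 0, 1 and 3 h, and 407 and 322 at 8 h, so that label was high through 3 h and lower at 8 h. Proteasome genes had -0.44 (half-life 2.29 h), 0.12 above all genes or 0.0327 under that filter, with 4 of 36 called slower. Aminoacyl-tRNA synthetases had -0.46, with 2 of 19 called, the slowest being Qars (-0.19, SE 0.06), which charges glutamine tRNA. Cytoskeleton genes had -0.49, with 4 of 27 called, though the 20 with at least 20 conversion counts in every library had a median of -0.01 relative to that of all such genes. Among the called was Flna, a crosslinker of actin, which had 101, 127 and 104 labelled CPM at 0, 1 and 3 h and 42.5 and 38.5 at 8 h. Lysosome and autophagy genes had -0.51 with 1 of 37 called, close to the share of all genes, and SR and hnRNP splicing factors had -0.52 with 1 of 30.

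**Figure D3:**
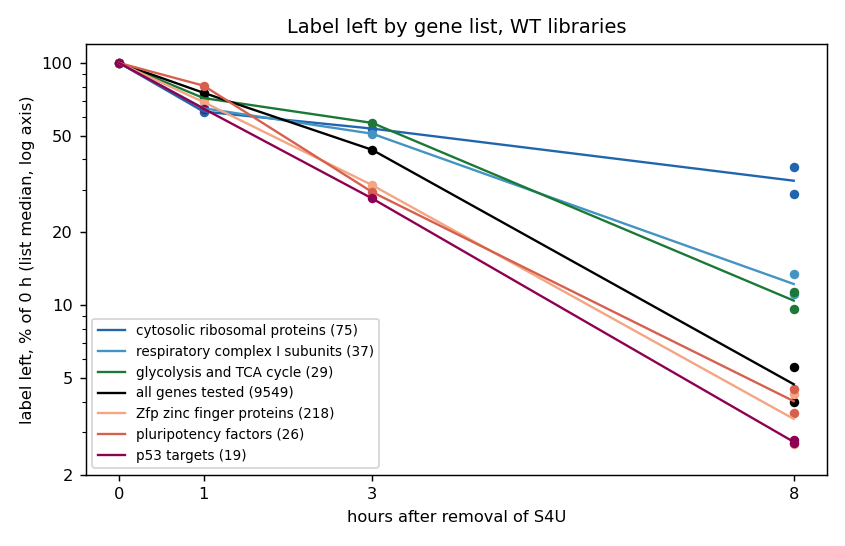
Label left in WT as a percentage of the 0 h library (list medians, log axis) against hours after S4U was removed. Points are libraries and lines join them, passing at 8 h through the geometric mean of the 2 replicates. Ribosomal protein genes kept 37.2% and 28.7% at 8 h, all genes 5.59% and 4.0%, and p53 targets 2.69% and 2.77%.

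Lists of regulators lay at the median gene or slightly below it, and hardly any member was called. Over all genes only 4.54% were called slower and 0.105% faster. In lists as small as most of those below, an absence of calls therefore says little about the members. Pluripotency factors had a median slope of -0.58 (half-life 1.73 h) over 26 genes, with 1 called faster and none slower. They kept a median of 80.7% at 1 h, 29.4% at 3 h, and 4.50% and 3.6% at 8 h. Sox2 had 610, 483 and 157 labelled CPM at 0, 1 and 3 h and 32.6 and 20.3 at 8 h (slope -0.57, SE 0.06). Nanog had 151, 79.5 and 41.0, then 5.59 and 3.13 (slope -0.62, SE 0.07). Klf4 had 246, 244 and 58.1, then 17.3 and 12.1 (slope -0.53, SE 0.06). In each of these 3 genes the values fell in the order of the chase, and each lost label (edgeR adjusted p between 1.61e-07 and 2.56e-07), but none differed from the median gene. Pou5f1 had only between 48.1 and 68.3 CPM of total RNA, and its slope of -0.41 (SE 0.09) was not called either.

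The MYC and MAX network had a median slope of -0.59 over 10 genes with no call. Mycn, the MYC family member of embryonic stem cells, had 64.0, 30.5 and 12.8 labelled CPM at 0, 1 and 3 h and 2.24 and 1.25 at 8 h, a slope of -0.62 (SE 0.08) or a half-life of 1.61 h. Myc had 27.1, 7.15 and 3.21, then 1.33 and 0, with 35 conversion counts at 3 h and 19 and 0 at 8 h, where a count of 0 allows up to 3. Its slope was -0.59 (SE 0.13), but 26.3% of the 0 h label was left at 1 h and 11.8% at 3 h, so its loss was steeper early in the chase than the slope over 8 h. Bmyc had the steepest slope of the network (-1.0, SE 0.16) and was not called (adjusted p = 0.10).

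Immediate early transcription factors had a median slope of -0.63 (half-life 1.58 h) over the 13 of 22 that could be tested, with no call. Nr4a1, an orphan nuclear receptor induced by growth signals, had 51.0, 107 and 45.5 labelled CPM at 0, 1 and 3 h and 1.19 and 0.157 at 8 h (slope -0.91, SE 0.12, adjusted p = 0.0763). Its 1 h library stood above the 0 h one. The class as a whole kept a median of 91.9% at 1 h, more than the 75.4% of all genes, and 38.4% at 3 h. Feedback inhibitors of FGF and ERK had a median of -0.59 over 14 genes (-0.04 relative to the median gene, or -0.0012 with an offset of each gene's own total count), with no call. Targets of BMP, Nodal and Wnt had -0.57 over 14, with none called slower and 1 called faster, where 0.105% of all genes were.

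Zfp zinc finger genes, the largest family of transcription factors in mouse, had a median slope of -0.58 over 218 genes. None was called in either direction, against 4.54% and 0.105% of all genes, and 129 lay below the median gene. Their label fell to a median of 31.3% at 3 h, against 43.8% over all genes. Their median level was 25.9 CPM, against 40.1 CPM over all genes, and only 218 of 399 passed the filter on low counts. A list of homeobox and forkhead factors, which also held Sox genes such as Sox7, Sox4 and Sox1, had -0.58 over 26 genes of 128. Polycomb and DNA methylation genes had -0.57 over 20. The m6A writers, readers and erasers had -0.58 over 18 genes, with no call, and the range ran from Ythdf3 (-0.76, SE 0.09), a reader, to Virma (-0.33, SE 0.09), a subunit of the writer.

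The steepest list medians were those of p53 targets, ATF4 targets and immediate early factors. Targets of p53 had -0.66 (half-life 1.51 h) over 19 genes, of which only 2 had 20 conversion counts in every library. Perp (-0.18, SE 0.05), a desmosome and apoptosis protein, was called slower against the trend of its list. However, 69.2% of its counts carried conversions at 0 h and 42.6% and 38.4% at 8 h, a high share described further on. ATF4 targets, which answer amino acid shortage, had -0.63 over 16 genes, with the serine synthesis enzyme Psat1 (-0.27, SE 0.07) called slower. These medians depended on the scaling: with an offset of each gene's own total count, p53 targets lay at -0.02 relative to the median gene instead of -0.11, ATF4 targets at 0.01 instead of -0.08, and immediate early factors at -0.0080 instead of -0.08. Mitosis and kinetochore genes had -0.60 over 32 genes. Cdk1, the mitotic kinase, had 137, 83.8 and 49.2 labelled CPM at 0, 1 and 3 h and 2.94 and 0.939 at 8 h (slope -0.77, SE 0.09, not called). Nusap1, a spindle protein, was called slower, but 64.2% and 28.6% of its counts carried conversions at 8 h against 51.7% at 0 h. DNA replication genes lay at the median (-0.55 over 36 genes, no call), from Fen1 (-0.79, SE 0.09) to Pold1 (-0.32, SE 0.07).

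mRNA decay factors (-0.57 over 43 genes), AU-rich element binding proteins (-0.58 over 13), G1 cyclins and regulators (-0.55 over 16), sterol and fatty acid synthesis genes (-0.59 over 25) and histone variants (-0.57 over 3) had no call in either direction. Genes of the mTOR pathway, the target of INK128, had a median of -0.60 over 25 genes. In that list Lamtor2, a lysosomal anchor of the pathway, was called slower (-0.13, SE 0.10) on 2.45 to 6.11 labelled CPM, and Rragc was called faster.

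The 10 genes called faster than the median gene were Dact2, Nr0b1, Cnep1r1, Timm29, Socs3, Vmp1, Rragc, Fam8a1, Eif1 and Src. Dact2, an inhibitor of Nodal and Wnt signalling, had 50.5, 36.0 and 9.62 labelled CPM at 0, 1 and 3 h and 0.140 and 0 at 8 h. Its 8 h values rest on 2 and 0 conversion counts. Its slope was -1.11 (SE 0.13), which is a half-life of 0.902 h, and it differed from the median gene by -0.55 (SE 0.13, edgeR adjusted p = 0.00429). Dact2 was called faster in each alternative fit in which it passed the filter, which held for no other gene of the 10. Socs3, the inhibitor that LIF signalling induces against itself, had 117, 87.0 and 36.6 labelled CPM at 0, 1 and 3 h and 1.68 and 1.1 at 8 h (slope -0.82, SE 0.08, adjusted p = 0.0334).

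Rragc, a Rag GTPase that brings mTORC1 to the lysosome, had 41.2, 31.1 and 16.2 labelled CPM at 0, 1 and 3 h and 0.210 and 0 at 8 h (slope -1.0, SE 0.13, adjusted p = 0.0386). The tyrosine kinase gene Src had 28.04, 21.3 and 7.42, then 0.0699 and 0 (slope -1.07, SE 0.15, adjusted p = 0.0399). Eif1 had 225, 153 and 62.5, then 4.47 and 1.72 (slope -0.78, SE 0.08, adjusted p = 0.0387). These genes kept between 26.5% and 39.3% of their label at 3 h, and had between 0 and 64 conversion counts in an 8 h library.

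Among the others, Nr0b1, a nuclear receptor of the pluripotency network, had 368, 483 and 216 labelled CPM at 0, 1 and 3 h and 9.02 and 3.29 at 8 h (slope -0.84, SE 0.09, adjusted p = 0.0233). With an offset of its own total count, however, its slope lay 0.05 above that of the median gene. Cnep1r1, a subunit of a lipin phosphatase, had 27.5, 15.8 and 4.67 labelled CPM at 0, 1 and 3 h and no conversion count at 8 h. Timm29, of the carrier translocase of the inner mitochondrial membrane, had 17.9, 35 and 7.14, and none at 8 h. A count of 0 allows up to 3 counts in each library, so these 2 slopes depend on how the fit treats zeros. Dact2 (2 and 0 conversion counts in the 8 h replicates), Rragc (3 and 0), and Vmp1, Fam8a1 and Src (1 and 0 each) were near this floor too. Their slopes and half-lives therefore also rest on counts that are hardly measured at 8 h. Timm29 shares part of its position with Yipf2, Vmp1 with Mir21a, Dact2 with Gm34510 and Rragc with D130007C19Rik, and reads of such pairs may not be told apart.

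**Figure D4:**
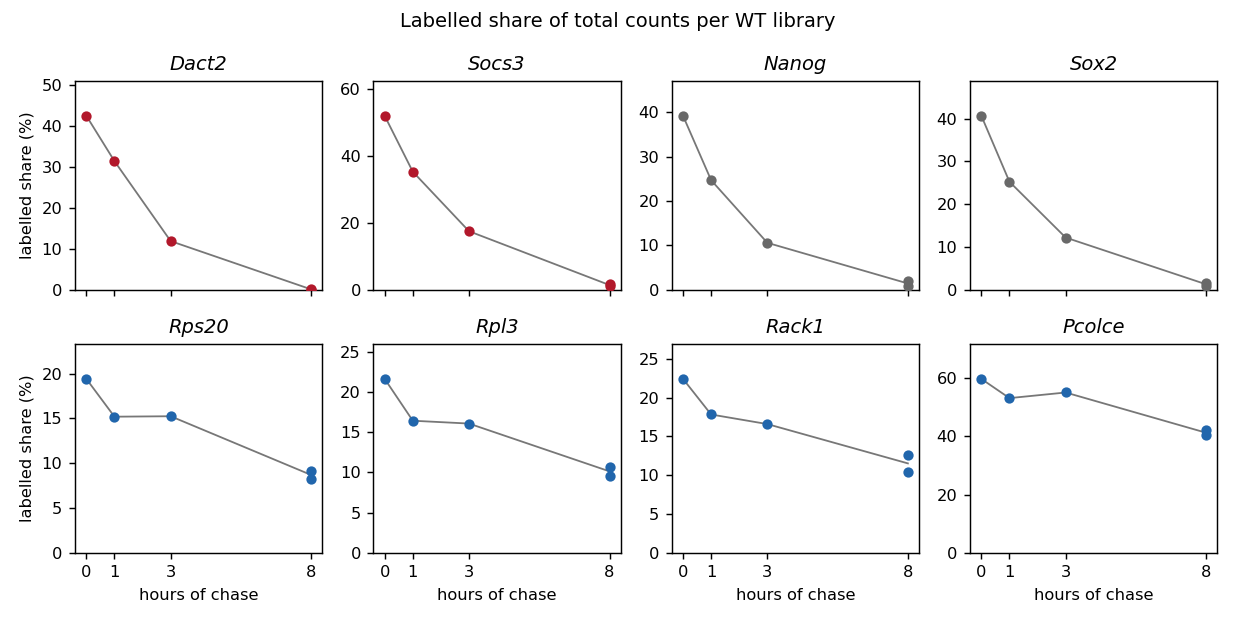
Labelled share of a gene's total counts (%) in each of the 5 WT libraries against hours of chase, for called fast genes (red), regulators not called (grey) and called slow genes (blue). Points are libraries, and the line passes through the mean of both 8 h replicates. Rps20 began at 19.4% and stood at 9.11% and 8.25% at 8 h, while Sox2 began at 40.7% and stood at 1.56% and 0.964%.

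Of the 434 slow genes, 139 belonged to any of the lists, and 56 of these were ribosomal protein genes. By RefSeq biotype, 317 were protein-coding (of 8909 tested), 76 were pseudogenes (of 259), 6 transcribed pseudogenes (of 21), 7 long noncoding RNAs (of 88) and 5 snoRNAs (of 21). Reads of a pseudogene and its parent may not be told apart, and their part in the pseudogene calls was not tested. Among noncoding RNAs, Gas5, a host of snoRNAs with a TOP tract, had 254, 206 and 136 labelled CPM at 0, 1 and 3 h and 49.5 and 138 at 8 h (slope -0.17, SE 0.06). Of 7 tested snoRNA hosts and nuclear long noncoding RNAs, 3 were called slower.

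Among genes with at least 100 conversion counts at 0 h, the highest slopes belonged to Snora81, Gssos2, Snora20, Galnt10 and Nfkb2, all between 0.02 and 0.14. Gssos2 and Snora20 had only 22 and 15 conversion counts at 1 h. Snora81, a snoRNA inside Eif4a2, had 31.3, 12.4 and 20.8 labelled CPM at 0, 1 and 3 h and 67.7 and 25.8 at 8 h, and its labelled share stayed between 5.92% and 8.13%. Snora20 lies inside Tcp1, Gssos2 overlaps Gss and Mir6516 overlaps Snhg20, so counts under these names can hold reads of their hosts. None of these 5 genes had a fitted loss, so no half-life can be given for them.

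In some slow genes the labelled share was high at 8 h. Over 20% of counts at 8 h, with both replicates pooled, carried conversions in 101 genes, and 65 of these were called slower. Pcolce had 59.7%, 53.1% and 55.0% at 0, 1 and 3 h and 42.1% and 40.3% at 8 h, and Smc6 had 59.1%, 92.9% and 57.3%, then 41.4% and 61.1%. Also among these 65 were Perp (41.3% pooled at 8 h), Fh1 (30.4%), Rpl10 (25.6%), Rps27 (24%) and Nolc1 (22.4%). Nusap1 (53.3%), Nfkb2 (43.4%), Gssos2 (36.7%) and Galnt10 (29.5%) were among them too. The median share of the 101 genes was 53.9% at 0 h in WT, and 39 of them were also over 20% at 8 h in Mettl3-KO libraries. A fixed base difference between the cell line and the genome build would be counted as a conversion that does not decay, and its part in these genes was not tested. The other 369 slow genes had a median share of 32.7% at 0 h and 9.5% at 8 h, against 46.2% and 2.43% over all genes.

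Mettl3-KO libraries, from separate cells under the same pause and pulse, showed the slow classes of WT among their slow genes too. Each genotype was measured against its own median gene, whose slope was -0.47 in Mettl3-KO and -0.55 in WT, half-lives of 2.15 and 1.81 h. In Mettl3-KO, 1833 genes (19.2%) were called slower and 603 (6.31%) faster than the median gene. Of the 434 genes called slower in WT, 354 (81.6%) were called slower in Mettl3-KO too, and 410 lay above its median. All 10 genes called faster in WT lay below the Mettl3-KO median, and 4 were called there, Timm29, Socs3, Rragc and Fam8a1. Over all 9549 genes the slopes of the genotypes had a Spearman correlation of 0.350, given as a description across genes, which are not independent and share their annotation.

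Cytosolic ribosomal protein genes had a median slope of -0.13 in Mettl3-KO and -0.16 in WT, and 71 of 75 were called slower in Mettl3-KO. The percentages of label left in Mettl3-KO are scaled by total counts without TMM factors, unlike those in WT. They are relative to the mean log2 label of both Mettl3-KO 0 h libraries. At 1 h ribosomal protein genes kept a median of 114% and 103% in Mettl3-KO and 63.1% in WT. At 3 h they kept a median of 90.5% of their label in the Mettl3-KO library and 53.6% in the WT library. At 8 h they kept 50.03% and 46.8% in Mettl3-KO, and 37.2% and 28.7% in WT. Over all genes the medians also stood higher in Mettl3-KO. They were 96.3% and 97.8% against 75.4% in WT at 1 h, and 64.7% against 43.8% at 3 h. At 8 h they were 8.38% and 8.19% against 5.59% and 4.0% in WT. The gap was thus already present at 1 h, where the WT fit has 1 library. Complex I genes had -0.13 in Mettl3-KO and -0.36 in WT, with 34 of 37 called slower in Mettl3-KO. Cytoskeleton genes had -0.18 in Mettl3-KO and -0.49 in WT, and mitochondrial ribosomal protein genes -0.30 and -0.54. Pluripotency factors had -0.58 in both, and Zfp genes -0.57 in Mettl3-KO and -0.58 in WT, although the median gene was slower in Mettl3-KO. Differences between genotypes were tested per gene and not per list: the slope, as Mettl3-KO minus WT, was called above 0, which is slower loss in Mettl3-KO, for 736 genes (7.71%), and below 0 for 39 (0.408%). Of the 434 slow genes in WT, 42 differed between genotypes.

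**Figure D5:**
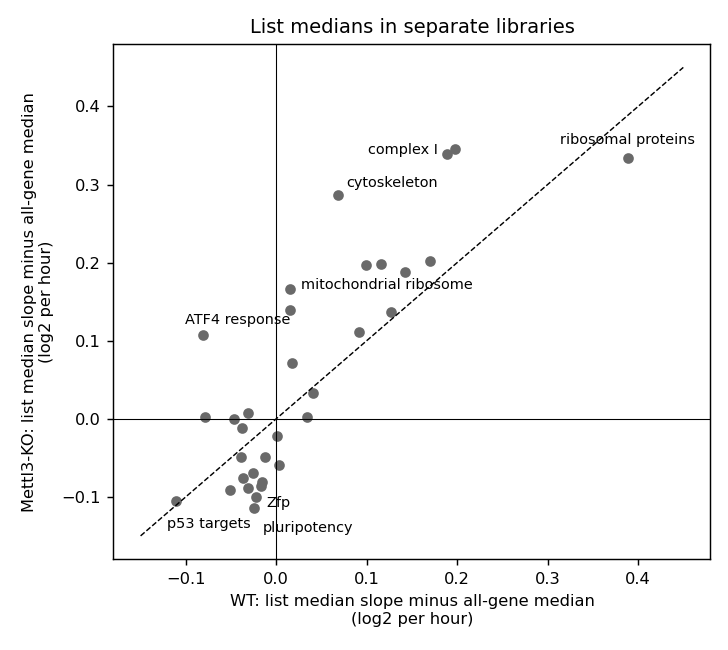
Median slope of each gene list with at least 10 tested genes, relative to the median of all genes in the same genotype (log2 units per hour), in Mettl3-KO (vertical axis) against WT (horizontal axis). The dashed line marks equal values; ribosomal proteins are at 0.33 in Mettl3-KO and 0.39 in WT, and complex I is at 0.34 and 0.19.

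The authors' deposited table of fitted half-lives, which states no unit, holds 6985 genes, of which 6225 were tested here. Its WT half-lives in the authors' deposited table have a median of 1.69 and run from 0.900 to 6.42. Across the 6225 genes their Spearman correlation with the half-lives fitted here was 0.840, a description of 2 fits to the same libraries. Only 36 of the 434 slow genes and 5 ribosomal protein genes are in the authors' deposited table, where the largest WT correlation of a listed gene is -0.80. The slow classes described above are thus mostly outside the range of genes for which the authors' deposited table gives a half-life.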

How the data were processed

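The authors deposited total counts and T>C conversion counts as whole numbers for 36336 entries per gene symbol; 1 unnamed entry, 0.00707% to 0.0312% of a library, was left out. What 1 conversion count stands for, a read or a base, is not given in the sources used here. Build mm10 and, with no role stated, edgeR 3.32.1, Subread 1.5.0 with featureCounts, and Trim Galore 0.4.0 were used, per the submitters' processing notes. A deposited table of normalized log2 values was used for no result. The authors' half-lives (other values with no unit) and correlations (score) are named as theirs in the text.

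Conversion counts were fitted with edgeR 4.0.16 in R 4.3.3 (quasi-likelihood, robust dispersion) on hours, with the TMM-scaled total count of the library as offset, in 5 WT libraries. Genes needed at least 10 conversion counts in 3 libraries, which 9549 met. All had 10 at 0 h, as 12875 genes did, so fast genes entered through the early libraries, and 7572 genes with some conversion count did not enter. The slope was tested against 0 and against the median slope, with Benjamini-Hochberg adjustment over all 9549 genes. WT at 0 h, 1 h and 3 h has 1 library each in the fit, assumed to vary like the 8 h pair. The spread comes from departures from a straight line as well as from that pair, so curved loss adds to it. Ribosomal protein medians changed by -0.67 log2 units per hour from 0 to 1 h, -0.12 from 1 to 3 h and -0.14 from 3 to 8 h. A half-life is -1 divided by the slope. Lists are described by counts and medians. Mettl3-KO slopes came from the 7 deep libraries, and the interaction with hours tested the difference. The fits were tested on simulated data. Alternatives are limma 3.58.1, DESeq2 1.42.0, other scalings and filters, left-out libraries and a replicate block.

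Named genes are the 12 with the smallest p per direction (10 fast genes existed) and the 5 highest slopes, both among genes with 100 conversion counts at 0 h, up to 2 tested members at each end of a list, and Pou5f1, Sox2, Nanog, Klf4, Myc and Mycn. Other named genes were chosen after their values were seen. Members and lists were chosen with earlier results of these data known. RefSeq symbols of GRCm38.p6 matched 9311 of the 9549 genes. Motifs of 3' UTRs were not analysed here, and a few genes that the rule names are not reported here.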

Additional observations from a re-analysis of the deposited data

Results flagged for a closer look

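The 170 genes picked for their WT slopes, as members at the ends of lists or as regulators, include 27 whose slope differed between the genotypes by a test of the interaction of genotype and hours over all genes (edgeR quasi-likelihood test with Benjamini-Hochberg adjustment). A slope above 0 as Mettl3-KO minus WT, which is slower loss in Mettl3-KO, was found in 22 of them (736 of all genes, 7.71%), and one below 0 in 5 (39 of all genes, 0.408%). The slope of Cnep1r1, as Mettl3-KO minus WT, was 0.64 log2 units per hour (0.635, SE 0.170, adjusted p = 0.0100), so that it lost label more slowly in Mettl3-KO (slope -0.53) than in WT (-1.19). The difference for Vmp1 was 0.43 (0.432, SE 0.141, adjusted p = 0.0409), with slopes of -0.60 in Mettl3-KO and -1.07 in WT. Snora81, with -0.13 in Mettl3-KO and 0.14 in WT, differed by -0.26 (-0.262, SE 0.081, adjusted p = 0.0296). Mir6516, with -0.29 in Mettl3-KO and 0.00 in WT, differed by -0.29 (-0.286, SE 0.083, adjusted p = 0.0187). Snora20, with -0.61 in Mettl3-KO and 0.04 in WT, differed by -0.66 (-0.655, SE 0.150, adjusted p = 0.00211). The last 3 lie within or over other genes, and reads of their hosts may be counted under their names. At the ends of the lists, with adjusted p between 1.64e-06 and 0.0483 in that test, loss was slower in Mettl3-KO for further genes. These included Rps4l, a transcribed pseudogene by RefSeq biotype (slope as Mettl3-KO minus WT 0.480), and the mitochondrial ribosomal protein gene Mrpl22 (0.571). The respiratory chain genes Ndufab1 (0.508), Ndufb3 (0.447), Uqcrq (0.443) and Cox4i1 (0.218) were among them, as were Tomm7 (0.240), Pdhb (0.396), Ldha (0.416) and Psap (0.683). Loss was also slower in Mettl3-KO for Khsrp (0.357), Ythdf3 (0.346), Gdf3 (0.321), Bmyc (0.714), Zfp111 (0.697), Perp (0.222), Ndc80 (0.663), Plk1 (0.336), Tubb6 (0.743) and Lamtor3 (0.624). Loss was faster in Mettl3-KO for Cox7a2l (-0.267) and Nusap1 (-0.580). All were picked by their WT slopes, which enter the difference.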

How the results depend on the processing

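The medians of the slow classes kept their direction in every alternative fit in which they were recomputed, for ribosomal proteins, both respiratory lists, mitochondrial genome RNAs, glycolysis, matrix, translation factors, proteasome and chaperones. The 16 named slow or highest-slope genes also kept their calls wherever they passed the filter, except Gssos2 with all 14 libraries. Of the fast genes only Dact2 did. TMM factors taken from the conversion counts remove the common loss by construction: the median slope was then -0.0305, 51 genes lost label and 29 were called faster. With an offset of each gene's own total count 35 genes were faster and 652 slower (423 of the 434), and Nr0b1 turned to 0.0507. DESeq2 called 52 faster and 698 slower. With no filter 29 were faster and the BMP, Nodal and Wnt list was at -0.0942 relative to all genes. With at least 20 conversion counts in all 5 libraries, which leaves 1705 genes, 1619 lost label and 58 were faster, Nanog among them. That filter needs label at 8 h, and list medians relative to it were 0.30 for ribosomal proteins, 0.12 for complex I, 0.10 for the other respiratory complexes, 0.0858 for matrix, 0.0430 for translation factors, 0.0344 for chaperones, 0.0327 for proteasome, 0.0434 for p53 targets (2 genes), -0.0146 for cytoskeleton, -0.0640 for splicing factors, -0.0952 for BMP, Nodal and Wnt targets, -0.12 for Polycomb, -0.12 for pluripotency factors and -0.12 for AU-rich element binding proteins.

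Leaving out 1 library at a time gave 2 to 60 faster genes: 60 without 0 h, 2 without 1 h replicate 1, 4 without 3 h, 7 without 8 h replicate 1 and 11 without 8 h replicate 2. It gave 251 to 612 slower genes, 8326 to 8987 that lost label, and list medians of 0.10 to 0.20 for snoRNA hosts and of 0.0846 to 0.167 for chaperones. All 14 libraries in 1 fit called 54 genes faster. The differences between replicates at 1 h and at 8 h had a correlation of -0.06 over 63 genes with enough counts. With 49154 total counts in the shallow 1 h library, this cannot show whether same-numbered replicates deviate together. A replicate block with that library gave 21 faster genes. The depth at 8 h, with a median absolute difference of 1.16 on the log2 scale between the replicates, limits what can be said of fast genes.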
